A study of Mus with 4 samples.

Results

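The genes that build, sulphate and cut heparan sulphate and chondroitin sulphate chains were followed in cultured murine podocytes that overexpressed OASIS. The set holds 43 genes, which were picked by name from the symbols of the deposited array table, and every probe of each gene was taken. All 43 were on the array, with 83 probes of 1 spot each, out of 26893 named genes. Of the 43, 36 had at least 1 probe that could be tested, and 7 did not.

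Gene expression was measured in an immortalized murine podocyte cell line, differentiated for 10 to 14 days at 37 °C without interferon-γ. In 2 samples (OASIS) a lentivirus carried the active, N-terminal form of OASIS, the transcription factor encoded by Creb3l1, and in the 2 control samples (Venus) it carried the fluorescent protein Venus. Every sample received lentivirus at a multiplicity of infection of 200 to 500 with polybrene for 24 h, and total RNA was taken 48 h after the vector was added. The study sought genes that OASIS raises or lowers in podocytes and whose products the cells could secrete. All samples came from a single cell line, and the labels do not say whether the 2 samples of a group were separate cultures, so that p-values measure only the spread between these samples.

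The 4 arrays shared 1 slide and 1 scan, between 33938 and 34418 of 59305 spots were well above background, and no spot was saturated. With 2 arrays a group, the smallest two-sided p that an exact permutation test allows is 0.333, so that the number of arrays limits the precision. The single Creb3l1 probe differed by -0.17 between OASIS and Venus on the log2 scale (limma adjusted p = 0.298) and was not used to check the labels, since its place relative to the insert was not analysed here. Of 14 podocyte markers, 9 could be tested, Synpo, Actn4 and Podxl among them, whereas Nphs1, which encodes nephrin of the slit diaphragm, was not well above background on both arrays of either group. By their brightest probes, Wt1 and Cd2ap of this list rose, by 4.62 and 1.09 on the log2 scale, and Plce1 fell by 1.26, but their probes disagreed. Further probes gave -0.16 for Wt1, -0.37 and 0.31 for Cd2ap, and 0.047 and -0.83 for Plce1. The rising Wt1 probe read -5.77 and -5.29 with Venus in log2 against the array's 75th percentile, dim but well above background. It read -0.76 and -1.06 with OASIS, so that the size of its rise rests on the dim Venus values. Summed over all its probes, the intensity of the podocyte marker list, in multiples of the 75th percentile of the array, was 78.6 and 82.2 with Venus and 71.6 and 78.3 with OASIS. Bright probes weigh most in such a sum, and the brightest here, of Actn4, differed by -0.22 on the log2 scale.

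A glycosaminoglycan chain starts with a short linkage of sugars on a serine of a proteoglycan core protein. From that linkage, one set of enzymes extends heparan sulphate and another extends chondroitin sulphate, and sulphotransferases then decorate either chain with sulphate from the common donor PAPS. Podocytes help to make the heparan sulphate proteoglycans of the glomerular basement membrane, and extracellular enzymes can trim or cut the finished chains.

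Of the genes of chondroitin and dermatan sulphate assembly, 6 of 11 tested rose with OASIS, as did the sulphate donor enzyme Papss2, whereas 13 of 14 tested genes of heparan sulphate assembly did not pass the threshold. A gene was represented by its brightest tested probe, and it was called when its fold was above 2.0 or below 0.5 with an adjusted p under 0.1 by limma over all probes tested. Of the 36 members tested, 8 rose and 1 fell. Papss2, Hpse, Ust, Chst11, Chpf, Dse, Chsy1 and Chst12 rose, and Extl1 fell. Over all 16318 genes tested, 6.21% were called higher and 1.85% lower. Among members these shares were 22.2% and 2.78%. Hpse and Ust passed the filter on background only through the OASIS arrays, and among the 34 members measured in both groups 6 rose and 1 fell. With probes required to be well above background on all 4 arrays, 758 of all genes were higher and 236 lower, against 1014 and 302. With normexp background correction the member counts were 5 and 0, and with the t-test of the study's methods 3 and 1. Over all genes, the counts were 652 and 137 with normexp correction, and 334 and 66 with the t-test. In RNA from whole cultures, fewer cells of a type and less RNA per cell cannot be told apart.

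By adjusted p alone, 16 members were higher and 3 lower, beside 18.6% and 18.1% of all genes. Both OASIS arrays lay above both Venus arrays for 20 members and below them for 8, beside 31.5% and 39.4% of all genes, and the groups overlapped for the other 8. The median log2 difference, OASIS minus Venus, was 0.24 over the members tested and -0.056 over all genes tested. If any probe of a gene may count, 9 members were higher and 2 lower, with Chpf2 and Glce added, beside 8.63% and 3.62% of all genes. Of single member probes, 10 of 59 tested were higher and 3 lower, beside 5.89% and 2.47% of all probes tested.

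**Figure D1:**
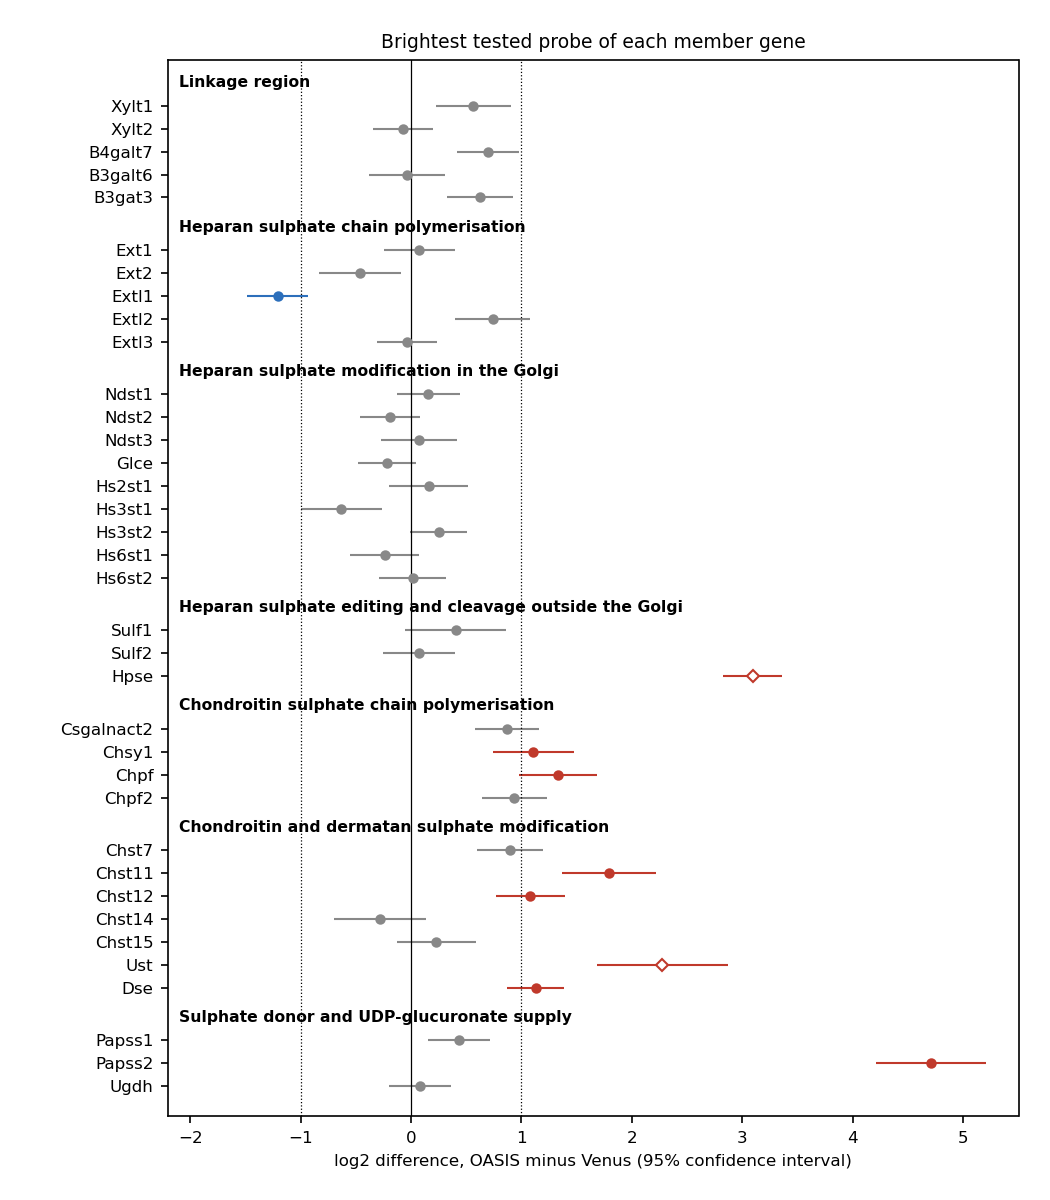
Log2 difference, OASIS minus Venus, of the brightest tested probe of 36 member genes grouped by role, with points for the limma estimate and bars for its 95% confidence interval, and dotted lines at a 2-fold change. Red marks members past the threshold and higher, blue those past it and lower, and grey the rest, and the open diamonds of Hpse and Ust are fitted values of probes not well above background with Venus. The red points lie in the chondroitin and dermatan sulphate groups and at Hpse and Papss2.

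Papss2, on chromosome 19 in band qC1, makes the sulphate donor PAPS from ATP and sulphate, and it had the widest difference of any member. Its brightest probe gave log2 intensities, taken against the 75th percentile of the same array, of -1.32 and -0.86 with Venus and 3.72 and 3.53 with OASIS. Both OASIS arrays stood far above both Venus arrays, and the gap within each group was small beside the gap between them. The log2 difference was 4.71 (standard error, SE, 0.19, limma adjusted p = 0.00190), which is a 26.2-fold rise. A second Papss2 probe gave -5.50 and -5.31 with Venus and -0.94 and -1.42 with OASIS. That probe rose by 4.23 on the log2 scale (SE 0.19, limma adjusted p = 0.00221), or by 2.43 after normexp background correction.

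Papss1, the other PAPS synthase, gave 0.38 and 0.25 with Venus and 0.76 and 0.74 with OASIS. The groups did not overlap, and the difference of 0.43 (limma adjusted p = 0.0491) was short of a 2-fold change. Ugdh, which makes the UDP-glucuronate that both kinds of chain contain, showed differences of 0.083 and 0.054 on its 2 probes, with a 95% confidence interval of -0.20 to 0.36 for the brighter.

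Genes of chondroitin sulphate chain polymerisation were higher by adjusted p in 4 of 4 tested members, beside 18.6% of all genes, with a median log2 difference of 1.02. Of these, 2, Chpf and Chsy1, passed the fold limit as well. Chsy1, on chromosome 7 in band qC, is a synthase that adds the alternating sugars of the chain. Its values were 1.91 and 1.93 with Venus and 3.18 and 2.88 with OASIS. Chpf, on chromosome 1 in band qC4, encodes the chondroitin polymerising factor that works with the synthases, and its values were 2.60 and 2.50 with Venus against 4.01 and 3.75 with OASIS. For both genes the 2 Venus arrays nearly coincided and the OASIS arrays lay well above them. The rise was 1.11 for Chsy1 (SE 0.14, limma adjusted p = 0.0116) and 1.33 for Chpf (SE 0.13, limma adjusted p = 0.00786) on the log2 scale. Without OASIS replicate 1 the value of Chsy1 was 0.96, below the fold limit.

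Csgalnact2 attaches the N-acetylgalactosamine that commits the linkage to chondroitin sulphate. It gave 0.83 and 0.69 with Venus and 1.59 and 1.66 with OASIS, a difference of 0.87 (SE 0.11, limma adjusted p = 0.0118). Its groups did not overlap, and the 95% confidence interval of 0.58 to 1.16 included the 2-fold limit. Chpf2, a relative of Chpf on chromosome 5 in band qA3, had 3 tested probes. The brightest gave 0.51 and 0.52 with Venus and 1.54 and 1.36 with OASIS, a difference of 0.94 (limma adjusted p = 0.0108) that missed the fold limit. Its second probe gave -1.06 and -1.45 with Venus and 0.00 and -0.32 with OASIS, and rose by 1.10 on the log2 scale (SE 0.19, limma adjusted p = 0.0225). That second probe was below the fold limit without Venus replicate 2, at 0.91, without OASIS replicate 1, at 0.94, and with normexp correction, at 0.92, and it missed the adjusted p of the methods' t-test.

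Csgalnact1 and Chsy3 were not tested. Csgalnact1, the paralogue of Csgalnact2, was well above background on 1 array of each group. Chsy3, a further chondroitin synthase, had 2 probes that were well above background on OASIS replicate 1 and on no other array, and the brighter on that array gave -8.19 and -8.23 with Venus and -5.45 and -6.00 with OASIS. Without the filter on dim probes Chsy3 was called higher, as the only member gained.

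Among the enzymes that modify chondroitin and dermatan sulphate, 4 of 7 tested rose and none fell, beside 6.21% and 1.85% of all genes, and the median log2 difference was 1.08. One of the 4, Ust, was tested only through the OASIS arrays. At an unadjusted p under 0.05, limma placed 5 higher and none lower, beside 20.0% and 20.9% of all genes. Chst11 and Chst12 are sulphotransferases that put sulphate on the N-acetylgalactosamine of chondroitin. Chst12, on chromosome 5 in band qG2, gave -0.06 and -0.11 with Venus and 1.10 and 0.90 with OASIS, a rise of 1.08 on the log2 scale (SE 0.12, limma adjusted p = 0.00904). Its groups lay well apart, but the rise was 0.98 without OASIS replicate 1, short of the fold limit.

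Chst11, on chromosome 10 in band qC1, had 2 probes that differed. The brighter over all arrays gave -2.07 and -2.23 with Venus and -0.17 and -0.54 with OASIS, a rise of 1.79 on the log2 scale (SE 0.16, limma adjusted p = 0.00680). The other gave -1.92 and -2.31 with Venus and -1.20 and -1.89 with OASIS. On this probe the groups nearly touched, and the difference of 0.57 (SE 0.28, limma adjusted p = 0.196) was within the spread between replicates. It was the brighter probe on the Venus arrays, so that Chst11 is not called when genes are represented by their brightest Venus probe.

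Dse, the epimerase that turns chondroitin sulphate into dermatan sulphate, lies on chromosome 10 in band qB1. Its probe gave -2.33 and -2.36 with Venus and -1.21 and -1.22 with OASIS. The replicates of each group nearly coincided, and the rise was 1.13 on the log2 scale (SE 0.10, limma adjusted p = 0.00645). After normexp background correction it was 0.90, below the fold limit.

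Ust, also on chromosome 10, in band qA1, puts sulphate on the uronic acid of the same chains. Its probe gave -5.93 and -6.49 with Venus, neither well above background, and -3.81 and -4.05 with OASIS. Set against the lowest signal above background, or the probe's own where higher, Ust was at least 4.30-fold higher with OASIS in the deposited intensities. The limma adjusted p of 0.00753 is that of the fitted log2 difference of 2.28, which rests on the dim Venus values. Normexp background correction gave a log2 difference of 0.59 and ended the call.

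Chst7, a chondroitin sulphotransferase of another position on the sugar, gave 0.996 and 0.94 with Venus and 1.95 and 1.77 with OASIS. Its groups did not overlap, and the difference of 0.90 (SE 0.11, limma adjusted p = 0.0121) was below the fold limit. Chst14, the sulphotransferase specific to dermatan sulphate, showed a difference of -0.28 with a 95% confidence interval of -0.70 to 0.14, and Chst15, which adds a further sulphate to an already sulphated residue, one of 0.23 with an interval of -0.13 to 0.59. Chst3 was well above background on OASIS replicate 1 alone, at -5.76 beside -6.33 on the other OASIS array and -7.24 and -6.85 with Venus, and was not tested. Chst13 was not well above background on any array.

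Counted together, the enzymes of chondroitin and dermatan sulphate polymerisation and modification had 6 of 11 tested members higher and none lower, at a median of 1.08. The enzymes of heparan sulphate polymerisation and modification had none of 14 higher and 1 lower, at a median of -0.012. Of all genes tested, 6.21% were called higher and 1.85% lower. With the tested probes of a gene averaged, the chondroitin median was 1.08 and the heparan sulphate median -0.20. At an unadjusted p under 0.05, limma placed 1 of the 14 heparan sulphate genes higher and 3 lower, beside 20.0% and 20.9% of all genes. It placed 4 of 4 chondroitin polymerisation genes and 5 of 7 modification genes higher, and none lower. The contrast between the 2 kinds of enzyme was not itself tested. The chondroitin count was 5 of 10 when probes had to be well above background on all 4 arrays, 4 of 11 with normexp background correction, 4 of 11 without OASIS replicate 1, 8 of 14 without OASIS replicate 2, and 1 of 11 with the t-test of the study's methods. The heparan sulphate count stayed at 0 higher under each of these. In the main setting 1014 of all genes were called higher. The filter on all 4 arrays gave 758, normexp correction 652 and the t-test 334. At an unadjusted p under 0.05, that t-test placed 4 of 4 chondroitin polymerisation genes and 5 of 7 modification genes higher, and none lower. It placed 2 of the 14 heparan sulphate genes higher and 2 lower.

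**Figure D2:**
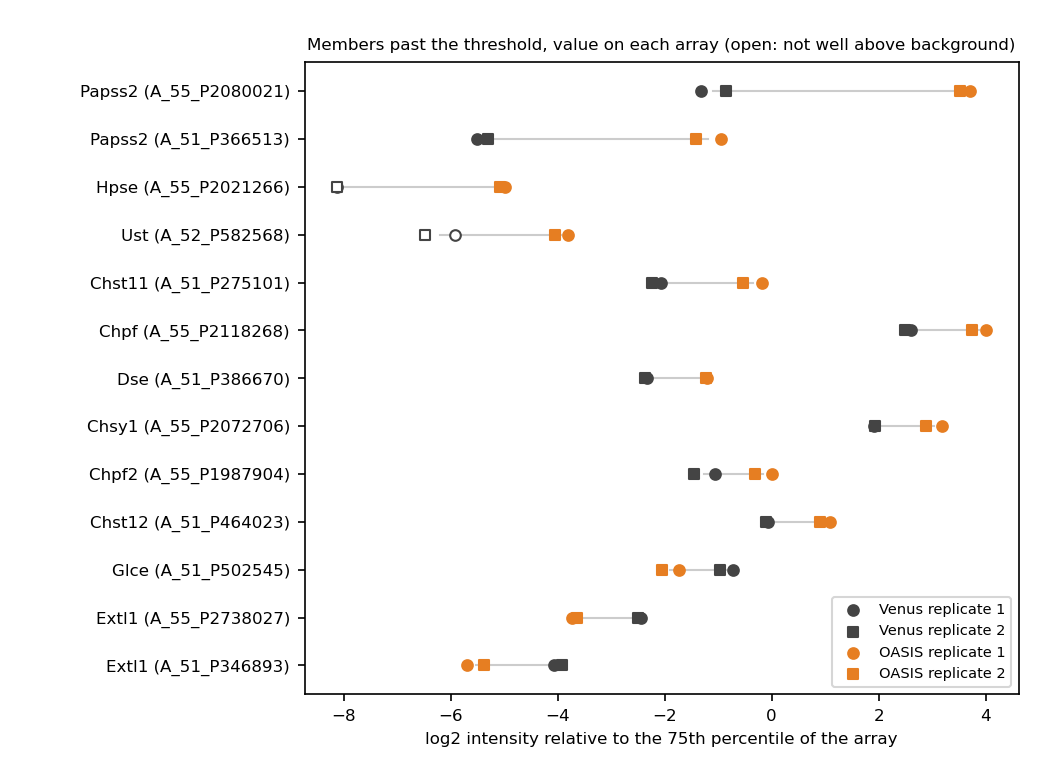
Log2 intensity, taken against the 75th percentile of its array, for the 13 member probes past the threshold, with Venus arrays in grey, OASIS arrays in orange, circles for replicate 1 and squares for replicate 2, and a line between the group means. Open symbols mark arrays on which the probe was not well above background, as for Hpse and Ust with Venus, and levels of different probes cannot be compared. In each row the OASIS arrays lie on one side of both Venus arrays, to the left for Glce and Extl1 and to the right for the others.

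The linkage region, which both kinds of chain need, had 5 tested members and none was called. By adjusted p alone 3 of the 5 were higher, beside 18.6% of all genes, and limma gave 3 higher and none lower at an unadjusted p under 0.05, beside 20.0% and 20.9%, while the t-test of the study's methods called none. B4galt7, which adds the first galactose, gave 2.29 and 2.21 with Venus and 2.997 and 2.90 with OASIS, a difference of 0.70 (limma adjusted p = 0.0171), and its second probe gave a difference of 0.67. B3gat3, which adds the closing glucuronate, gave 0.26 and 0.30 with Venus and 0.99 and 0.81 with OASIS on its brightest probe, a difference of 0.63 (limma adjusted p = 0.0254). In both genes the OASIS arrays lay above the Venus arrays without reaching a 2-fold change, and the other B3gat3 probes gave differences of -0.18 and 0.81.

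Xylt1 and Xylt2 start the linkage by adding xylose to the core protein. The 2 tested Xylt1 probes gave differences of 0.56 (limma adjusted p = 0.0421) and -0.13 (limma adjusted p = 0.728). Xylt2 gave -0.074 and -0.064, and B3galt6, which adds the second galactose, -0.033. The 95% confidence interval was -0.34 to 0.20 for the brighter Xylt2 probe and -0.38 to 0.31 for B3galt6, so that a 2-fold change lay outside both.

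Among the genes of heparan sulphate chain polymerisation, Extl1 fell and the other 4 were not called. Extl1, on chromosome 4 in band qD3, is an N-acetylglucosaminyltransferase of the exostosin family. Its brighter probe gave -2.45 and -2.51 with Venus and -3.74 and -3.63 with OASIS, and its second tested probe -4.06 and -3.92 with Venus and -5.70 and -5.37 with OASIS. Both probes placed both OASIS arrays below both Venus arrays. Extl1 fell by 1.21 on the log2 scale on the brighter probe (SE 0.10, limma adjusted p = 0.00645) and by 1.54 on the other (SE 0.15, limma adjusted p = 0.00745). After normexp background correction these values were -0.75 and -0.41, and neither passed the fold limit.

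Ext1 and Ext2 form the polymerase that extends heparan sulphate. Ext1 gave 3.49 and 3.71 with Venus and 3.70 and 3.65 with OASIS, a difference of 0.076 (95% confidence interval -0.25 to 0.40). Its groups overlapped, whereas those of Ext2 did not, at -1.94 and -2.05 with Venus and -2.31 and -2.60 with OASIS, a difference of -0.46 (limma adjusted p = 0.0769). Extl3, which adds the first N-acetylglucosamine of the chain, differed by -0.039 (95% confidence interval -0.31 to 0.23). Extl2, a transferase that acts on the linkage region, gave 0.73 and 0.72 with Venus and 1.33 and 1.59 with OASIS, a difference of 0.74 (limma adjusted p = 0.0236).

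Of 11 genes that modify heparan sulphate in the Golgi, 9 were tested and none was called by its brightest probe, with differences between -0.63 and 0.25. At an unadjusted p under 0.05, limma placed none of the 9 higher and 1 lower, Hs3st1, beside 20.0% and 20.9% of all genes. The t-test of the study's methods called none. The N-deacetylase and N-sulphotransferase Ndst1 gave 5.13 and 5.19 with Venus and 5.25 and 5.38 with OASIS on its brightest probe. The difference was 0.16, with a 95% confidence interval of -0.13 to 0.44. Ndst2 differed by -0.19 (95% confidence interval -0.46 to 0.08). The Ndst3 probes gave 0.070 and -0.65, the second with a limma adjusted p of 0.0246.

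Glce, on chromosome 9 in band qB, is the epimerase that turns glucuronate into iduronate in heparan sulphate, and its 4 probes gave unlike sizes of difference. The brightest gave 3.18 and 3.12 with Venus and 2.95 and 2.90 with OASIS, a difference of -0.22 (limma adjusted p = 0.172). A dimmer one gave -0.73 and -0.97 with Venus and -1.73 and -2.06 with OASIS. On all 4 probes both OASIS arrays lay below both Venus arrays. The dimmer probe fell by 1.05 on the log2 scale (SE 0.17, limma adjusted p = 0.0185), and the remaining probes gave -0.89 and -0.43. The fall of the dimmer probe missed the fold limit without Venus replicate 1, at -0.93, without OASIS replicate 2, at -0.89, and with normexp correction, at -0.87, and it missed the adjusted p of the methods' t-test.

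Of the sulphotransferases that follow, Hs2st1 acts on iduronate, and its probes differed by 0.16, -0.43 and -0.32, with none called. Hs3st1, which makes a rare modification known from the antithrombin-binding site of heparin, gave 0.64 and 0.47 with Venus and -0.20 and 0.05 with OASIS on its brighter probe. Its groups did not overlap, and the difference of -0.63 (limma adjusted p = 0.0382) was short of the fold limit, while its second probe differed by -0.13. Hs3st2 differed by 0.25 (95% confidence interval -0.01 to 0.51), Hs6st1 by -0.24 (95% confidence interval -0.55 to 0.07) and the brightest Hs6st2 probe by 0.014 (95% confidence interval -0.29 to 0.31). The Hs3st2 value comes from 1 of its 4 probes, and the other Hs3st2 probes were not well above background on any array. No probe of Ndst4 or Hs6st3 was well above background on any array.

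The genes that edit or cut heparan sulphate outside the Golgi had 3 tested members, of which Hpse rose. Hpse, on chromosome 5 in band qE4, encodes heparanase, the endoglucuronidase that cleaves the chains. Its brighter probe gave -8.12 and -8.13 with Venus, not well above background, and -4.99 and -5.07 with OASIS, well above it on both arrays. Set against the lowest signal above background, Hpse was at least 2.13-fold higher with OASIS in the deposited intensities. The limma adjusted p of 0.00150 is that of the fitted log2 difference of 3.09, which rests on the dim Venus values. With normexp background correction the log2 difference was 0.41, below the fold limit. Its second probe was not well above background on any array, with -8.20 and -8.28 with Venus and -6.33 and -7.43 with OASIS.

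Sulf1 and Sulf2, which remove sulphate from heparan sulphate at the cell surface, were not called. Sulf1 gave 1.15 and 1.43 with Venus and 1.53 and 1.87 with OASIS, a difference of 0.40 (limma adjusted p = 0.157), and Sulf2 differed by 0.072 (95% confidence interval -0.25 to 0.40). The lower OASIS value of Sulf1 lay closer to the higher Venus value than the replicates of either group lay to each other. Hpse2, a relative of heparanase that lacks its cleaving activity, was not well above background on any array.

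**Figure D3:**
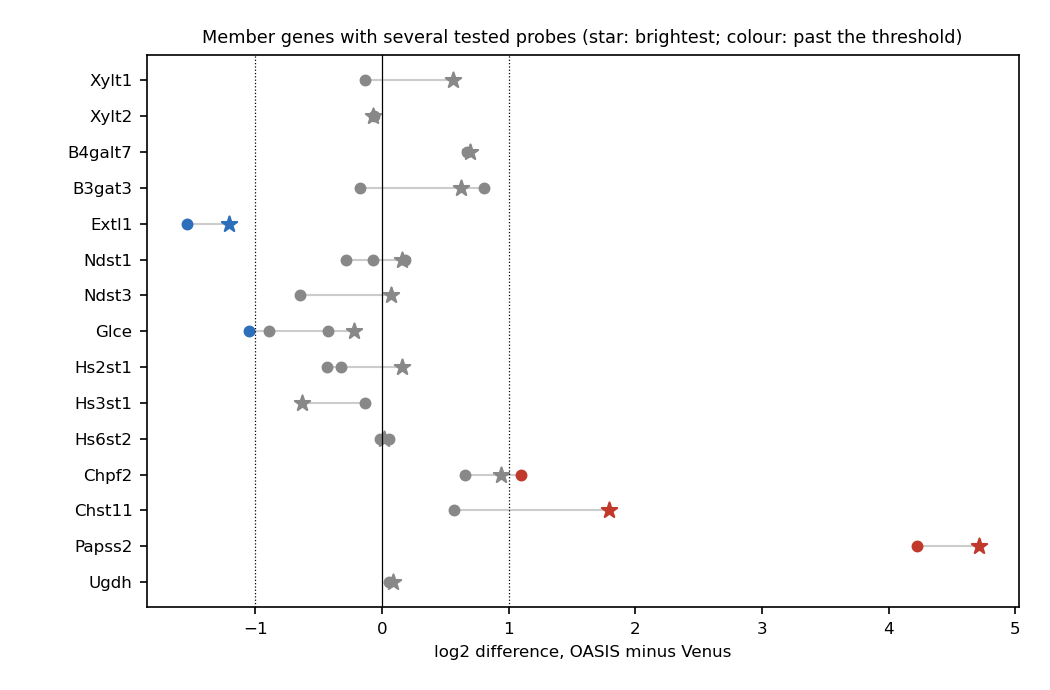
Log2 difference, OASIS minus Venus, of each tested probe of the 15 member genes with several tested probes, with a star for the brightest probe, dotted lines at a 2-fold change, red and blue for probes past the threshold and grey for the rest. Papss2 and Extl1 have all tested probes past the threshold, and Chst11, Chpf2 and Glce only some.

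Of the 15 members with several tested probes, 5 had at least 1 probe past the threshold. In 2 of them, Papss2 and Extl1, all tested probes passed, and in 3, Chst11, Chpf2 and Glce, only some did. In no member were probes called in both directions. The widest spread between probes of 1 gene was 1.22 on the log2 scale, at Chst11. Which transcript forms the probes read was not analysed here. The 43 members lie on 17 chromosomes. Chromosomes 3 and 5 hold 5 members each, and chromosomes 7 and 10 hold 4 each. The members that rose lie on chromosomes 10 (Chst11, Ust and Dse), 5 (Hpse and Chst12), 7 (Chsy1), 1 (Chpf) and 19 (Papss2). A link with position was not tested.

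Other glycosaminoglycan genes that are not members were taken from a list of 54, of which 52 were on the array and 43 were tested. By brightest probe, 2 of the 43, or 4.65%, were higher and none was lower, beside 6.21% and 1.85% of all genes, so that the share of calls in this list did not exceed that of all genes. The median log2 difference was 0.066. At an unadjusted p under 0.05, limma placed 12 of the 43 higher and 9 lower, beside 20.0% and 20.9% of all genes. The t-test of the study's methods also called 2 higher and none lower.

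Slc26a2, a sulphate transporter, supplies the sulphate from which PAPS is made. Its brightest probe gave -0.46 and -0.41 with Venus and 2.35 and 2.10 with OASIS. It rose by 2.66 on the log2 scale (SE 0.13, limma adjusted p = 0.00252), which is 6.32-fold, and its other 2 probes rose by 2.12 and 1.97. The OASIS arrays lay above the Venus arrays on all 3 probes. Gfpt1, the first and rate-limiting enzyme of the hexosamine pathway towards UDP-N-acetylglucosamine, gave 1.25 and 1.28 with Venus and 3.60 and 3.42 with OASIS. It rose by 2.25 on the log2 scale (SE 0.11, limma adjusted p = 0.00274), or 4.75-fold, and 3 of its 4 tested probes were called.

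**Figure D4:**
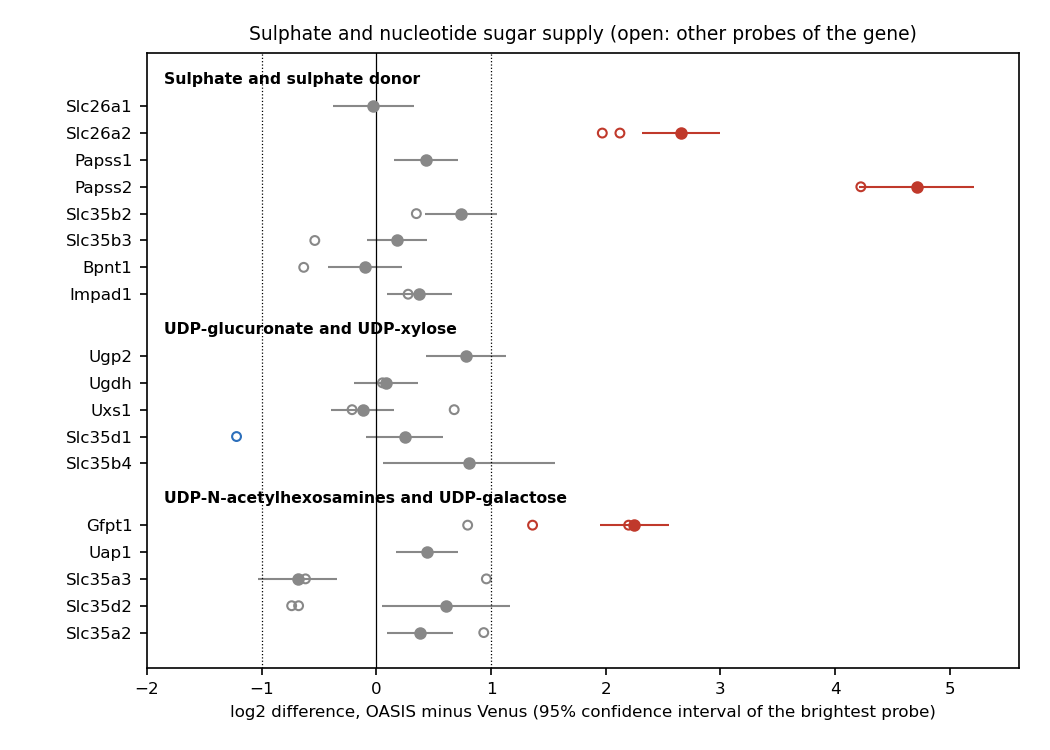
Log2 difference, OASIS minus Venus, of members and other genes that supply sulphate and nucleotide sugars, with a filled point and a 95% confidence interval for the brightest tested probe, open points for other tested probes, red or blue for probes past the threshold, grey for the rest, and dotted lines at a 2-fold change. Papss2, Slc26a2 and Gfpt1 have their brightest probe past the threshold, and Slc35d1 has only a dimmer probe past it, at -1.22.

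The further supply genes were not called by their brightest probe. Slc35b2, which carries PAPS into the Golgi, differed by 0.74 (limma adjusted p = 0.0196), and Ugp2, which makes UDP-glucose, by 0.78 (limma adjusted p = 0.0215). Uap1, which finishes UDP-N-acetylglucosamine, differed by 0.44 (limma adjusted p = 0.0434). Slc35a3, a Golgi carrier of that sugar, had probes of either sign, at -0.69, -0.62 and 0.96. Of 16 tested genes of transport and supply, 7 were higher and 1 lower by adjusted p alone, beside 18.6% and 18.1% of all genes.

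Breakdown and the other chains gave no calls by brightest probe, with limma or with the t-test of the study's methods. None of 14 lysosomal genes passed, with differences between -0.51 and 0.54. At an unadjusted p under 0.05, limma placed 1 higher and 5 lower, beside 20.0% and 20.9% of all genes. Arsb, the lysosomal sulphatase of dermatan sulphate, had 1 dimmer probe that fell by 1.14 on the log2 scale (limma adjusted p = 0.00837), beside -0.073 on its brightest. None of 7 tested genes of hyaluronan and keratan sulphate passed. Limma placed 1 higher and 3 lower at an unadjusted p under 0.05, beside the same 20.0% and 20.9% of all genes. Dsel, a second dermatan sulphate epimerase, differed by 0.77 (limma adjusted p = 0.0268), in the direction of Dse and below the fold limit.

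Markers of other cell types were read on the same arrays. Among 9 fibroblast or mesangial markers, 6 were tested and 1 was called, Pdgfra, a growth factor receptor of fibroblasts. No Pdgfra probe was well above background with Venus. Its brightest probe was at least 7.96-fold higher with OASIS. The limma adjusted p of 0.00147 is that of the fitted log2 difference of 5.22, which rests on the dim Venus values. Another Pdgfra probe was called at a fitted log2 difference of 1.46, but its bound was only 1.72-fold, below the fold limit. The remaining Pdgfra probe was not well above background on any array. The summed intensity of the fibroblast or mesangial list, in the same multiples, was 101 on both Venus arrays and 82.8 and 84.4 with OASIS. That sum is weighted to its brightest probe, of Acta2, which differed by -0.27 on the log2 scale. Thy1, Lum and Itga8 were not tested. Of 4 tested tubular markers out of 10 Lrp2 rose, by 1.62 on the log2 scale on its brightest probe and by 1.68 on the next, while its other 3 probes gave -0.098, 0.012 and -0.16. The summed intensity of the tubular list was 33.8 and 43.8 with Venus and 36.6 and 55.2 with OASIS. Its brightest probe, of Aqp1, differed by 0.082. None of 3 tested endothelial and 5 tested leukocyte markers was called, and their sums were 0.743 and 0.660, and 19.2 and 18.2, with Venus and 0.642 and 0.582, and 15.2 and 15.0, with OASIS. The brightest leukocyte probe, of Itgam, differed by -0.51. The part of these other cell types in the values of the enzymes was not tested.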

How the data were processed

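Total RNA of 4 samples, 2 Venus and 2 OASIS, was labelled with Cy3 and hybridised to 1-colour Agilent SurePrint G3 Mouse GE v2 arrays. The authors deposited, per spot, the intensity after background correction by Agilent Feature Extraction (version 12.1.0.3), with flags, and a table of scaled intensity with a detection score, gene symbols and bands. From the deposited intensities, each log2 value was taken against the 75th percentile of its array, without control and outlier spots. Testing required a probe to be well above background on both arrays of 1 group or both, as 31598 of 56605 probes were. The groups were compared with limma 3.58.1 (R 4.3.3, tables read by the package data.table, version 1.17.8), and p-values were adjusted over all tested probes by Benjamini and Hochberg's method. The threshold was that of the study's methods.

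For probes dim on both arrays of a group, a bound sets the brighter group's mean against a floor. The floor is the dimmer group's mean of, per array, the probe's value or the lowest value well above background, whichever was higher. A probe not well above background can lie above that lowest value, as Ust did on Venus replicate 1. Each bound therefore holds for the deposited intensities only and is no strict limit. Every member is accounted for, those with a probe past the threshold are given on each array, and other glycosaminoglycan genes past it are named. A few further ones were named after their values were seen. The members and all gene lists were chosen with earlier results of these data known. All 43 symbols matched RefSeq. Coordinates and sequences are not given, since a genome of that array design was not used here. The fit was tested on simulated data. Alternatives were quantile normalization, median scaling, normexp correction with an offset of 50 (on median spot intensities), the authors' scaled values, other filters on dim probes, outlier spots kept, probes averaged per gene, the methods' t-test, an intensity trend, an adjusted p under 0.05, a replicate block and leaving out each array. Representing a gene by its brightest Venus probe was added after the data were seen.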

Additional observations from a re-analysis of the deposited data

How the results depend on the processing

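The same 9 members were called with quantile normalization, median scaling, the authors' scaled values, outlier spots kept, probes averaged per gene, an intensity trend, an adjusted p under 0.05, and when Venus replicate 1 or Venus replicate 2 was left out. Normexp correction lost Dse, Extl1, Hpse and Ust, a filter on all 4 arrays Hpse and Ust, the methods' t-test Chpf, Chst11, Chst12, Chsy1 and Ust, the loss of OASIS replicate 1 Chst12 and Chsy1, and the Venus-brightest probe Chst11. No filter added Chsy3, and leaving out OASIS replicate 2 added Chpf2 and Chst3. The cause was not tested. Dim probes and 2 arrays a group limit the precision, and a slide block was not run, since there was 1 slide.

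Normexp correction called 789 genes in all, against 1316, with 5 members higher and 0 lower, 5 with any probe called, and 6 probes higher and 0 lower. The methods' t-test called 400 genes, with 3 members higher, 4 with any probe called, and 4 probes higher and 1 lower. The median of the members was 0.24, and 0.22 with median scaling, 0.22 with the authors' values, 0.22 with the mean of probes, 0.19 with a filter on all 4 arrays and 0.19 with the Venus-brightest probe. Leaving out 1 array gave 0.22 to 0.26 for it, 6 to 10 members higher, 1 lower each time, 8 to 13 with any probe called, 7 to 15 probes higher and 2 to 4 lower, 1267 to 1718 genes in all, and 2 to 4 other glycosaminoglycan genes higher, with 4 without OASIS replicate 2. With the replicate number as a block, the same 9 members and 1345 genes were called. The numbers were not taken as pairs, since there were only 2, and deviations of the same number correlated at 0.259 over probes.

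No called value changed sign. Of uncalled probes, the brightest of Hs6st2 turned to -0.0087 with quantile normalization, -0.0078 with median scaling and -2.88e-05 with the authors' values, and that of Ndst3 to -0.015 with normexp correction. Leaving out 1 array gave ranges that span 0, of -0.14 to 0.075 for B3galt6, -0.035 to 0.19 for Ext1, -0.090 to 0.012 for Extl3, -0.42 to 0.16 for the dimmer Hs3st1 probe, -0.20 to 0.17, -0.31 to 0.42 and -0.076 to 0.10 for the Hs6st2 probes, -0.058 to 0.20 for Ndst3, -0.014 to 0.16 for Sulf2, -0.024 to 0.13 for the dimmer Ugdh probe, and -0.49 to 0.22 for the dimmer Xylt1 probe.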
